A study of Homo sapiens with 12 samples.

Results

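The 10 genes described here carry fibroblast growth factor (FGF) signalling from ligand to feedback: the receptors FGFR1, FGFR2, FGFR3, FGFR4 and FGFRL1, the ligands FGF2, FGF4, FGF8 and FGF17, and the inhibitor SPRY4. They were taken by Entrez gene number from a named list out of 23922 genes. The list was chosen with earlier results of these data known, so counts of its genes called are a description only. All 10 were among the 18101 genes that passed the filter on low counts, FGF4 only through its day 7 T3 and T4 groups. RNA was sequenced in 12 libraries of H9 cells, a long-established line of human embryonic stem cells, on the way to hepatocytes. Cells labelled hepatoblasts were collected at day 7 and cells labelled hepatocytes at day 19. On each day, cells received 0.1% DMSO as control, 30 nM T3 (triiodothyronine) or 30 nM of the prohormone T4 (thyroxine, with 1 iodine more than triiodothyronine), with 2 libraries per group. The question of the series was which genes answer to thyroid hormone while human liver cells develop. Every group derived from the same line, so differences between donors were not sampled. The labels do not say that the libraries of a group were separate cultures, and p-values then measure a spread that may be technical. The start of hormone exposure and the vehicle of the hormone are not given in the sources used here.

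FGF ligands bind receptor tyrosine kinases on the cell surface together with heparan sulfate or a Klotho protein, and the paired receptors switch on the RAS-ERK cascade. ERK then induces ETS transcription factors of the ETV group and inhibitors of the Sprouty and dual-specificity phosphatase families, which dampen the signal. In the embryo, FGF from the heart mesoderm helps to direct foregut endoderm toward liver. FGFR4 with its coreceptor KLB is the main FGF receptor of mature hepatocytes and receives FGF19, which lowers bile acid synthesis.

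Each library held 18363549 to 19306181 expected counts, the reads that the authors' software assigned to transcripts. Levels below are CPM, counts per 1e+06 counts after TMM scaling, unless FPKM is named. The labelled cell types were checked against marker lists, and no hepatocyte marker was at 0 in any group. The summed level of 8 hepatoblast and hepatocyte markers was 4048 to 4063 CPM in DMSO at day 7 and 5.748e+04 to 6.251e+04 CPM in DMSO at day 19. At day 19 it was 2403 to 3332 CPM with T3 and 6621 to 7266 CPM with T4, and all 8 markers were lower than in DMSO with either hormone. Of all tested genes, 27.3% were called lower with T3 and 21.9% with T4. Markers of other cells were present too: 6 mesenchyme markers summed to 5166 to 5360 CPM in DMSO at day 19, 1693 to 2503 CPM with T3 and 2488 to 2919 CPM with T4. In these bulk samples, fewer cells of a type and less RNA per cell cannot be told apart.

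FGFR1, FGFR2 and FGFR3 are each made in forms that differ in the end of the third immunoglobulin-like domain, where the ligand binds. A choice between adjacent exons gives the IIIb form, typical of epithelium, or the IIIc form, typical of mesenchyme, and FGF2, FGF4, FGF8 and FGF17 act mainly on IIIc forms. The exons of FGFR3 are shown because the deposited tables separate transcripts of this gene by the choice, and the FGFR3 result below turns on it. They are given 5′ to 3′ on the strand of the gene, from the GENCODE annotation of GRCh38, and both are coding exons on the plus strand, at chr4:1802914-1803064 (IIIb) and chr4:1803692-1803836 (IIIc). Capitals mark bases that are identical in the aligned exon of the other form.
FGFR3 IIIb: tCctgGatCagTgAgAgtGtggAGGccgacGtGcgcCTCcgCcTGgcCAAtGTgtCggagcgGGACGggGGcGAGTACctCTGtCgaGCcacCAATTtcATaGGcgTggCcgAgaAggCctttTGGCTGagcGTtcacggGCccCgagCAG
FGFR3 IIIc: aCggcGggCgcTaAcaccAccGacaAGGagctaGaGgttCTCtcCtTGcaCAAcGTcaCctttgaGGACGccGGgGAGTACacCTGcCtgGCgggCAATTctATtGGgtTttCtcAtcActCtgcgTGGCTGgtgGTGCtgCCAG
The exons shared 71 of the 151 bases of IIIb (47%), so reads that fall in them can be told apart by sequence.

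At day 7, all 4 kinase-bearing receptors were abundant. Per length, FGFR1 to FGFR4 summed to 491 and 496 FPKM in the DMSO libraries. FGFR1 made up 35.5% and 34.8% of that sum, FGFR4 29.6% and 30%, FGFR3 22.8% and 23%, and FGFR2 12.1% and 12.2%, an order that was the same in both libraries. At day 19 in DMSO the sum was 213 and 206 FPKM, with FGFR4 at 60% and 63% and FGFR1 at 3.36% and 3.39%. With T3 at day 19 the sum was 105 and 106 FPKM, of which FGFR4 made up 30.6% and 34.3%, FGFR2 33.7% and 30%, FGFR3 21.9% and 21.6% and FGFR1 13.8% and 14.1%. With T4 it was 130 and 142 FPKM, and FGFR4 held 41.4% and 42.5%. The shares of FGFR2 and FGFR4 under T3 thus lay within the spread of the replicates, while in DMSO at day 19 FGFR4 stood apart from the other 3.

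**Figure D1:**
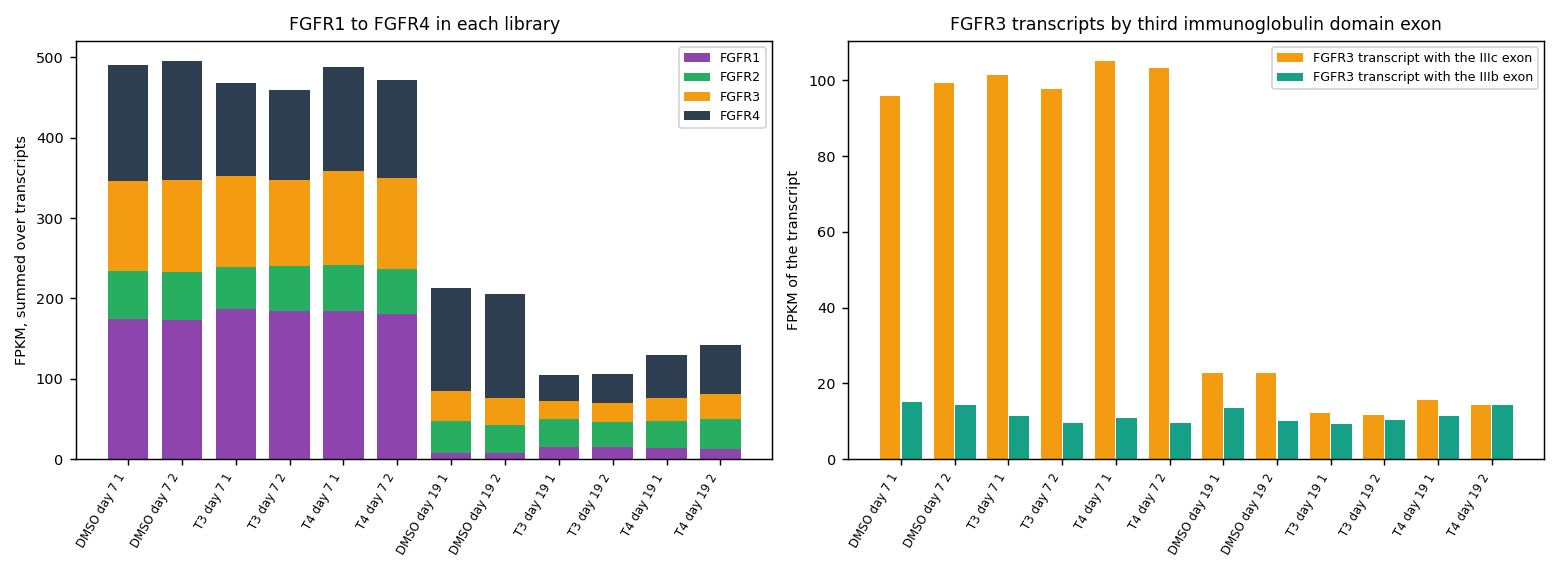
Left, stacked bars give the FPKM of FGFR1 to FGFR4 in each of the 12 libraries, and right, paired bars give the FPKM of the FGFR3 transcripts with the IIIc and the IIIb exon. The receptor sum is 459 to 496 FPKM at day 7 and 105 to 213 FPKM at day 19, and the IIIc bar of FGFR3 is 95.89 to 105.2 FPKM at day 7 and 11.56 to 22.75 FPKM at day 19.

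FGFR4 (Entrez gene 2264, GRCh38 chromosome 5, 177086915 to 177098144) had the largest hormone response among the receptors. At day 7 it stood at 399.7 and 409.6 CPM in DMSO, 325.6 and 313.4 CPM with T3, and 362.1 and 343.1 CPM with T4. Both hormone groups lay below DMSO without overlap. The difference was called for T3 (log2 fold change -0.34, SE 0.0622, edgeR quasi-likelihood test, adjusted p = 0.00192) and not for T4 (-0.20, adjusted p = 0.0773). A fit on the day 7 DMSO and T4 libraries alone did call the T4 difference (adjusted p = 0.00136). At day 19, FGFR4 was at 468 and 474.3 CPM in DMSO, 112.3 and 123.1 CPM with T3, and 178.6 and 199.5 CPM with T4. It fell by 2.0 on the log2 scale with T3 (SE 0.066, adjusted p = 9.20e-12) and by 1.32 with T4 (SE 0.064, adjusted p = 9.42e-10). T4 libraries stayed above T3 libraries (log2 difference 0.68, SE 0.0655, adjusted p = 1.40e-05). KLB, the coreceptor that pairs with FGFR4, showed a similar order at day 19, with 289.4 and 264.3 CPM in DMSO, 60.65 and 84.12 CPM with T3 and 90.22 and 115 CPM with T4. Hepatocyte markers were lower in the same libraries. At day 7, 5 of 8 fell with T3 and 4 of 8 with T4 (median log2 fold change -0.54 and -0.46). Of all genes, 6.54% and 2.52% were called lower in these comparisons. At day 19 all 8 fell with each hormone (median -3.67 and -2.39), where 27.3% and 21.9% of all genes were called lower. The part of the hepatocyte markers in the FGFR4 differences was not tested.

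FGFR1 (Entrez gene 2260, GRCh38 chromosome 8, 38411143 to 38468635) went the other way and was the sole member that rose with both hormones at day 19. It was at 49.91 and 46.46 CPM in DMSO, 96.46 and 93.08 CPM with T3, and 82.81 and 81.68 CPM with T4. The log2 fold change was 0.98 for T3 (SE 0.0582, adjusted p = 3.37e-09) and 0.77 for T4 (SE 0.0584, adjusted p = 8.26e-08, edgeR). Mesenchyme markers fell in the same libraries, 5 of 6 with T3 and 4 of 6 with T4, where 27.3% and 21.9% of all genes were called lower. The part of these markers in the FGFR1 differences was not tested. At day 7 FGFR1 stood at 911.5 and 902 CPM in DMSO, 1005 and 978.8 CPM with T3, and 990.5 and 962.1 CPM with T4. These differences of 0.13 and 0.11 were not called in the fit of all libraries (adjusted p = 0.0981 and 0.241) and were called in fits of the compared libraries alone (adjusted p = 0.0116 and 0.0152). FGFR1 shares 138 exon bases with LETM2 and 156 with AC087623.1, both on the opposite strand, and the counting strand was not stated. No entry under the name AC087623.1 was found among the genes measured. LETM2 had mean levels of 6.829 to 7.628 CPM at day 7 and 1.426 to 2.18 CPM at day 19, far below FGFR1. It was called in no hormone comparison, but at day 19 it was at 0.61 with T3 without overlap (edgeR, adjusted p = 0.0567). Between the days in DMSO it fell by 2.41. The part of LETM2 in the FGFR1 differences was not tested.

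FGFR3 (Entrez gene 2261, GRCh38 chromosome 4, 1793293 to 1808867) was called for neither hormone at day 7 (adjusted p = 0.983 and 0.653). Its levels were 430.5 and 437.3 CPM in DMSO, 445.9 and 424 CPM with T3, which overlapped DMSO, and 459.5 and 443.4 CPM with T4, which lay above DMSO without overlap. The day 19 levels were 188.3 and 171.5 CPM in DMSO, 111.2 and 108.5 CPM with T3, and 130.4 and 142.8 CPM with T4. FGFR3 fell by 0.71 with T3 (SE 0.0634, adjusted p = 2.48e-07) and by 0.40 with T4 (SE 0.0627, adjusted p = 0.00012). The 3 groups of day 19 did not overlap, and T4 lay above T3 by 0.31 (adjusted p = 0.00397), a call that was lost without T4 replicate 2 (adjusted p = 0.0519).

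FGFR2 (Entrez gene 2263, GRCh38 chromosome 10, 121478330 to 121598458) stood at 224.8 and 226.5 CPM in DMSO at day 7, at 207.3 and 210 CPM with T3 and at 220.2 and 214.4 CPM with T4, with no call for either hormone (adjusted p = 0.247 and 0.687). In the fit of the compared libraries alone, the T3 difference was called (-0.13, adjusted p = 0.0155). Its day 19 levels were 198 and 184.1 CPM in DMSO, 166.1 and 148.6 CPM with T3, and 161.5 and 173.8 CPM with T4. FGFR2 fell by 0.28 with T3 (adjusted p = 0.00177) and by 0.19 with T4 (adjusted p = 0.0262). The T4 call rested on DMSO replicate 1 and T4 replicate 1, without which the adjusted p was 0.173 and 0.184, and it was absent with DESeq2 (0.0512) and with FPKM values. The T3 call was also lost with FPKM values (adjusted p = 0.0781 and 0.0785).

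FGFRL1 (Entrez gene 53834, GRCh38 chromosome 4, 1010212 to 1026898) encodes a receptor that binds FGF but lacks the kinase domain. It was the only member called lower in all 4 hormone comparisons. Its levels were 49.5 and 45.89 CPM in DMSO, 36.95 and 34.24 CPM with T3 and 37.64 and 36.09 CPM with T4 at day 7, and 36.28 and 39.72, 29.16 and 29.9, and 28.19 and 27 CPM at day 19. FGFRL1 fell by 0.42 and 0.37 at day 7 and by 0.36 and 0.46 at day 19 with T3 and T4, and no hormone group overlapped its DMSO group. The T4 call at day 7 (adjusted p = 0.00486) was lost without DMSO replicate 1 (0.0926) or T4 replicate 2 (0.0753).

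Transcripts of FGFR3 differed in form between the days. The IIIc transcript had a mean of 97.6 ± 2.39 FPKM in DMSO at day 7 (SD, n = 2) and 22.7 ± 0.0212 FPKM at day 19, while the IIIb transcript had 14.6 ± 0.53 and 11.7 ± 2.35 FPKM. The IIIb share of both was 13.5% and 12.5% in DMSO, 10.1% and 8.9% with T3 and 9.26% and 8.5% with T4 at day 7. At day 19 it was 37.1% and 30.7% in DMSO, 43.4% and 47% with T3, and 42.2% and 49.7% with T4. Every library of day 19 had a higher share than every library of day 7. The mean difference was 31.2 percentage points (n = 6 per day), and an exact permutation test of day within treatment gave a two-sided p of 0.00926, the smallest its 216 arrangements allow. At day 7 the shares with hormone lay below those in DMSO without overlap. At day 19 the direction was opposite: the shares with hormone lay above those in DMSO without overlap. Their day 19 means were 45.2% ± 2.55 with T3, 46% ± 5.3 with T4 and 33.9% ± 4.53 in DMSO (SD, n = 2). With 2 libraries per group no permutation test of either difference could pass the threshold. The drop of FGFR3 between the days was thus carried by the IIIc transcript in all 3 treatments, to 11.9 FPKM from 99.5 with T3 and to 14.9 FPKM from 104 with T4. The shares rest on the division of shared reads by RSEM, whose error the files do not give, and the IIIc transcript was assigned from its length, which differs from that of the IIIb transcript as the exons do.

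FGFR2 was mostly in the IIIb form on both days. The IIIb share of assigned transcripts was 77.5% to 85.4% in the 6 libraries of day 7 and 85% to 100% in those of day 19. The mean difference of 11.4 percentage points had an exact permutation p of 0.037 (two-sided, n = 6 per day). Between 3.41% and 33.3% of FGFR2 FPKM fell on transcripts that could not be assigned to either form, a range wider than the difference. No form is given for FGFR1, whose transcript shares varied strongly between replicates.

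Ligand transcripts were scarce beside the receptors, and FGF2 was the most abundant of the 4. FGF2 (Entrez gene 2247, GRCh38 chromosome 4, 122826682 to 122898236) maintains human pluripotent stem cells in culture. At day 7 it was at 17.33 and 18.81 CPM in DMSO, 27.25 and 27.59 CPM with T3, and 24.42 and 22.24 CPM with T4. It rose by 0.60 with T3 (SE 0.0872, adjusted p = 0.000325) and by 0.37 with T4 (SE 0.0885, adjusted p = 0.0226). The T4 call was lost when any of its 4 libraries was left out (adjusted p = 0.0613 to 0.232), with DESeq2 (0.0973) and with FPKM values (0.146 and 0.118). At day 19 the direction was opposite, with 22.41 and 21.38 CPM in DMSO, 14.79 and 17.16 CPM with T3, and 15.64 and 16.77 CPM with T4. FGF2 fell by 0.45 with T3 (adjusted p = 0.000945) and by 0.43 with T4 (adjusted p = 0.00172), the latter not called with FPKM values (0.058 and 0.0636). FGF2 shares 804 exon bases with NUDT6 on the opposite strand. NUDT6, at mean levels of 2.16 to 4.946 CPM, was called in none of the 4 hormone comparisons.

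FGF4 (Entrez gene 2249, GRCh38 chromosome 11, 69771022 to 69775341), a ligand that OCT4 and SOX2 drive in pluripotent cells, had the largest fold change of any member at day 7. The DMSO libraries held 3 and 4 counts, the T3 libraries 46 and 52, and the T4 libraries 22 and 27. FGF4 passed the filter on low counts (minimum count 10) only through the T3 and T4 groups of day 7, where it was high. Its rank by fold change is thus a description only. Mean levels were 0.1684 CPM in DMSO, 2.399 CPM with T3 and 1.199 CPM with T4. FGF4 rose by 3.78 on the log2 scale with T3 (SE 0.43, 95% interval 2.83 to 4.73, adjusted p = 0.000151) and by 2.78 with T4 (SE 0.471, interval 1.75 to 3.82, adjusted p = 0.00493). Without DMSO replicate 1 or T4 replicate 2 the T4 call was lost (adjusted p = 0.0678 and 0.0505). At day 19 no library held a count of FGF4. Markers of pluripotent cells were higher in the same day 7 libraries: 6 of the 7 in the files rose with each hormone. Of all genes, 9.43% were called higher with T3 and 3.9% with T4. The summed level of these markers was 1593 to 1615 CPM in DMSO, 2867 to 2896 CPM with T3 and 2390 to 2417 CPM with T4. Their part in the FGF2 and FGF4 differences was not tested.

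FGF8 and FGF17 belong to the same ligand subfamily, which acts in gastrulation and in patterning of the brain. FGF8 (Entrez gene 2253, GRCh38 chromosome 10, 101770109 to 101780369) had 22 and 21 counts in DMSO at day 7, 11 and 13 with T3, and 14 and 16 with T4. The hormone groups lay below DMSO without overlap, but neither difference was called (log2 fold change -0.81, interval -1.78 to 0.16, adjusted p = 0.257, and -0.49, interval -1.42 to 0.44, adjusted p = 0.584). With FPKM values and a pseudocount of 1, the T3 difference was called (adjusted p = 0.0165). Day 19 libraries had 0 to 4 counts of FGF8, too few to show a difference. FGF17 (Entrez gene 8822, GRCh38 chromosome 8, 22039672 to 22048809) had 10 and 10 counts in DMSO at day 7, 8 and 5 with T3, and 7 and 8 with T4, with no call. At day 19 it had 2 and 4 counts in DMSO, none with T3, and 2 and 0 with T4. The T3 level was 2.06-fold lower with T3 set to a floor of 3 counts over the group and the DMSO counts taken as exact. This difference was called (adjusted p = 0.0271). The call was lost in the fit of the compared libraries alone (0.0626), with DESeq2 (0.0629) and with limma on FPKM and a pseudocount of 1 (0.0816). It was also lost when either T3 library or DMSO replicate 2 was left out.

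**Figure D2:**
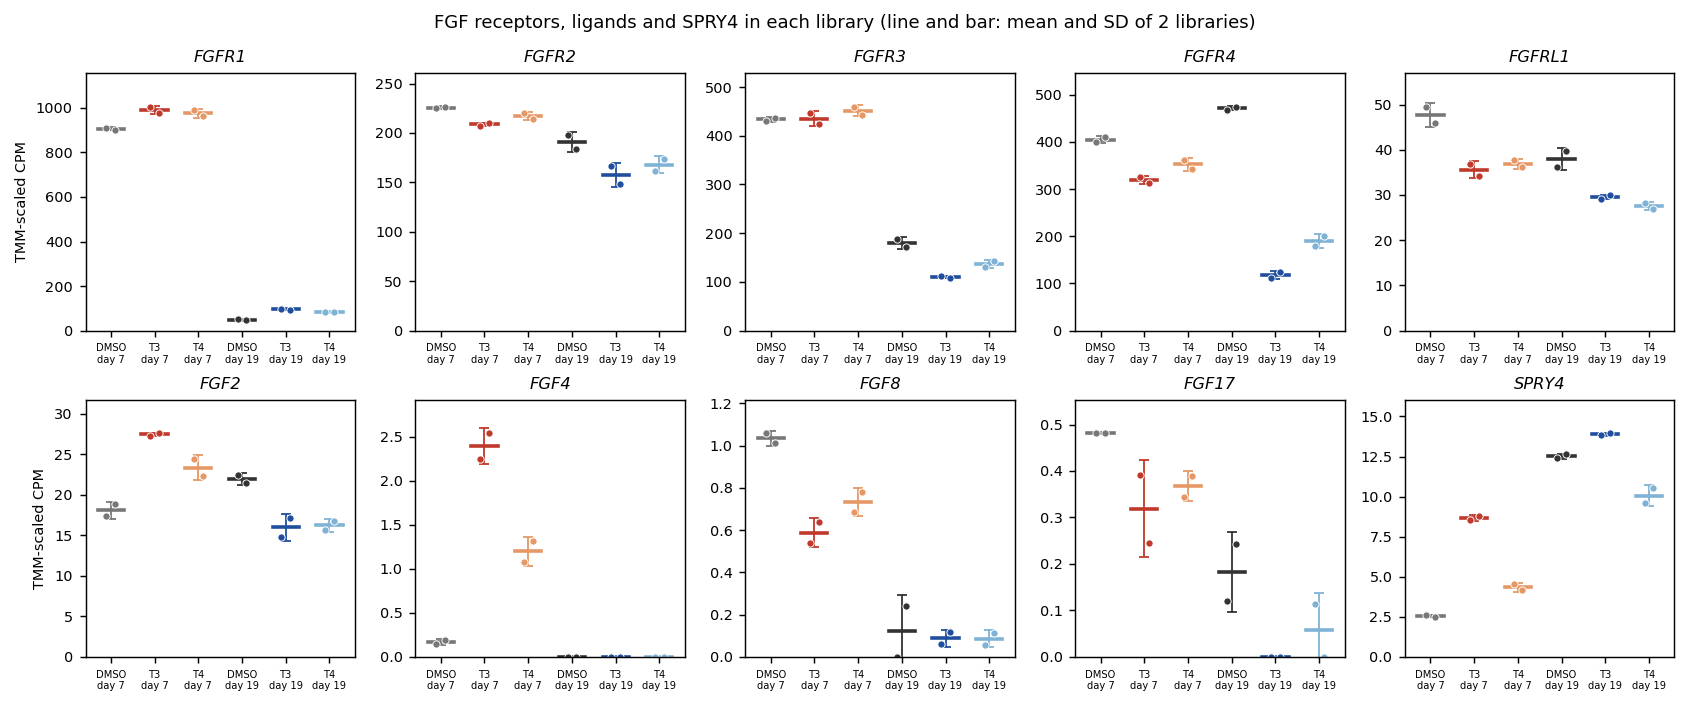
Points give TMM-scaled CPM of each gene in each of the 12 libraries, on an axis from 0, and lines with bars give the mean and SD of the 2 libraries of a group. FGFR4 at day 19 stands at 468 and 474.3 CPM in DMSO against 112.3 to 199.5 CPM with hormone, and SPRY4 at day 7 rises from DMSO through T4 to T3.

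SPRY4 (Entrez gene 81848, GRCh38 chromosome 5, 142310430 to 142325021) encodes a Sprouty protein, an inhibitor that receptor tyrosine kinases induce through ERK. At day 7 it was at 2.6 and 2.501 CPM in DMSO, 8.527 and 8.805 CPM with T3, and 4.521 and 4.145 CPM with T4. The 3 groups did not overlap. SPRY4 rose by 1.76 with T3 (SE 0.131, adjusted p = 6.47e-07) and by 0.76 with T4 (SE 0.143, adjusted p = 0.00522). The T4 call was lost without DMSO replicate 2 (0.0617) or T4 replicate 1 (0.0705). The levels at day 19 were 12.42 and 12.63 CPM in DMSO, 13.83 and 13.96 CPM with T3, and 9.587 and 10.52 CPM with T4. The T3 libraries lay above DMSO without overlap, but the difference of 0.15 was not called (interval -0.07 to 0.37, adjusted p = 0.252). With T4 SPRY4 fell by 0.32 (adjusted p = 0.0279), a call absent with DESeq2 (0.231), with FPKM values, and without DMSO replicate 1, DMSO replicate 2 or T4 replicate 1 (0.0734, 0.0922 and 0.156).

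By count, T3 at day 7 raised FGF2, FGF4 and SPRY4 and lowered FGFR4 and FGFRL1, 5 of the 10 genes, where 16% of all tested genes were called, 9.43% higher and 6.54% lower. T4 at day 7 raised the same 3 and lowered FGFRL1, 4 of 10 against 6.42% of all genes, 3.9% higher and 2.52% lower. Both day 7 counts include FGF4, which passed the filter only through the hormone groups in which it was high. At day 19, T3 changed 7 of 10, FGFR1 higher and 6 lower, against 52.3% of all genes, 25.1% higher and 27.3% lower. T4 also changed 7 of 10, 1 higher and 6 lower, against 42.8% of all genes, 21% higher and 21.9% lower. The T4 count at day 7 was 1 to 2 when one of its 4 libraries was left out, where the number of all genes called went from 1162 to between 370 and 406, and it was 2 with DESeq2 (807 of all genes).

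**Figure D3:**
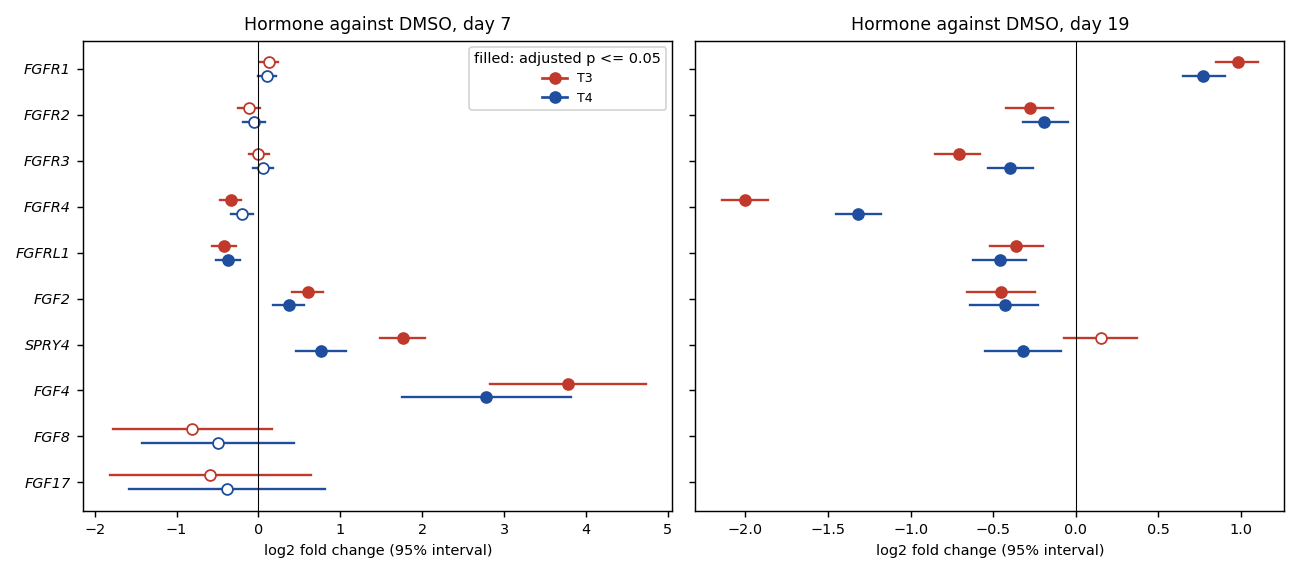
Points give the log2 fold change of each gene for T3 and T4 against DMSO at day 7 (left) and day 19 (right), with 95% intervals from the edgeR fit, and filled points have an adjusted p of at most 0.05. The axes of the panels differ in range, and FGF4, FGF8 and FGF17 are left out at day 19, where their counts were 0 to 4. FGF2 lies above 0 at day 7 and below 0 at day 19, and FGFR4 lies at -2.0 for T3 at day 19.

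T3 and T4, which differ by the additional iodine of T4, were compared at the same 30 nM and on the same days, as 1 pair for each of the 10 genes, with p-values adjusted over all 18101 genes. At day 7 SPRY4 was the 1 gene of the 10 that differed, against 0.365% of all genes. It was lower with T4 by 1.0 on the log2 scale (SE 0.12, adjusted p = 0.000988). FGF4 was also at a lower mean with T4, by 1.0, with an interval of -1.68 to -0.31 and no overlap of the groups, but was not called (adjusted p = 0.413). The intervals of the T4 minus T3 difference, not adjusted for the number of genes, were -0.13 to 0.08 for FGFR1, -0.07 to 0.19 for FGFR2, -0.07 to 0.18 for FGFR3, 0.01 to 0.28 for FGFR4 and -0.42 to -0.05 for FGF2. At day 19, 4 of 10 differed, against 15.7% of all genes. FGFR4 and FGFR3 were higher with T4 than with T3, by 0.68 and 0.31, which left both closer to their DMSO level. FGFR1 was lower with T4 by 0.20 (adjusted p = 0.0222) and SPRY4 by 0.47 (adjusted p = 0.00833). The FGFR1 call was lost in the fit of the T3 and T4 libraries alone (0.152) and without T3 replicate 1 (0.117), T4 replicate 1 (0.0612) or T4 replicate 2 (0.0777), and the SPRY4 call was lost in that fit (0.0597), with DESeq2 (0.0534) and without T4 replicate 1 (0.0684). No difference was called for FGFR2 (interval -0.04 to 0.23), FGFRL1 (-0.26 to 0.07) or FGF2 (-0.19 to 0.23).

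Between the days in DMSO, 9 of the 10 genes changed, against 72.4% of all genes, a share that leaves little to read from the count. FGFR1 fell by 4.23 (SE 0.0598), from a mean of 906.8 to 48.18 CPM, and FGFR3 by 1.27. FGFR2 and FGFRL1 fell by 0.24 and 0.33. FGF8 fell by 3.02 (adjusted p = 0.000661). Its day 19 DMSO libraries held 0 and 4 counts, and with each library left out in turn the value ran from -7.30 to -2.06. FGF4 went from 7 counts in the group to none, 1.85-fold lower with day 19 set to the floor of 3 counts and the 7 taken as exact. SPRY4 rose by 2.29 (SE 0.128, adjusted p = 5.42e-10). FGFR4 was 0.22 higher (adjusted p = 0.00536) and FGF2 0.28 higher (adjusted p = 0.0135), but both signs were reversed with limma on log2 FPKM, which changes unit, scaling and test together. There the median of all genes shifted by -0.35 or -0.18 with a pseudocount of 0.1 or 1. FGFR4 was at -0.19 under either and was called lower (limma, adjusted p = 0.0339 and 0.0319). FGF2 was at -0.12 or -0.09 and was not called (0.348 and 0.343). With DESeq2 the FGF2 rise was not called (adjusted p = 0.0596). The FGF2 call was also lost without day 7 DMSO replicate 1 (0.107) or day 19 DMSO replicate 1 (0.0699). FGF17 was not called (log2 fold change -1.37, adjusted p = 0.0808).

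In the hormone-treated cells all 10 changed between the days, with T3 against 73.1% and with T4 against 71.9% of all genes, and SPRY4 alone rose. FGFR4 fell by 1.44 with T3 and by 0.90 with T4, and FGF2 by 0.78 and 0.53. FGFR1 fell by 3.39 and 3.57, FGFR3 by 1.99 and 1.72, and FGFR2 by 0.41 and 0.37. With day 19 set to the floor of 3 counts, FGF4 was 27.1-fold lower with T3 and 14-fold lower with T4. SPRY4 rose by 0.68 with T3 and 1.21 with T4, from the higher day 7 levels given above. The FGFRL1 call with T3 was lost without day 7 T3 replicate 1 (adjusted p = 0.0511) and with DESeq2 (0.074). The FGF17 call with T4 was lost without day 7 T4 replicate 2 (0.0627) or day 19 T4 replicate 2 (0.122) and with DESeq2 (0.0998).

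The hormone effect itself differed between the days for the same 5 genes with each hormone: FGFR1, FGFR3, FGFR4, FGF2 and SPRY4. These were 5 of 10 against 38% of all genes for T3 and 5 of 10 against 27.7% for T4. For FGF2 the effect changed sign, from above 0 to below 0. For FGFR4 it grew downward. For SPRY4 the effect at day 19 was smaller with T3, at 0.15 and not called, and lay below 0 with T4, at -0.32. For FGFR1 and FGFR3 the effect was small at day 7 and clear at day 19. FGFR2, FGFRL1, FGF8 and FGF17 had no called difference of effects, and for FGF4 none can be estimated, since day 19 has no counts.

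The wider pathway was read from lists chosen with earlier results of these data known, which are described by counts. The share of all genes called higher and lower is 9.43% and 6.54% for T3 and 3.9% and 2.52% for T4 at day 7, and 25.1% and 27.3% for T3 and 21% and 21.9% for T4 at day 19, and each count below is to be read against it. Of the 22 human FGF genes, not all of which act through the receptors, 13 were tested, members included. With T3, 3 were higher and none lower at day 7, and 3 were higher and 4 lower at day 19, with median log2 fold changes of 0.14 and -0.16 against 0.01 and -0.03 for all genes. The 7 of 13 called at day 19 with T3 are close to the 52.3% of all genes. With T4, 3 were higher and none lower at day 7, and 1 was higher and 3 lower at day 19. FGF11, an intracellular FGF that does not act through the receptors, rose by 0.69 with T3 and by 0.58 with T4 at day 7. It is 1 of the 3 counted higher with each hormone on that day. FGF23, a hormone of phosphate balance, stood at 5.391 and 5.648 CPM in DMSO at day 19, 0.1198 and 0.6981 CPM with T3, and 0.7419 and 0.6821 CPM with T4, and fell by 3.72 and 2.94.

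Of 9 tested coreceptors and binding proteins none rose with either hormone. With T3, 3 fell at day 7 and 6 at day 19, where 6.54% and 27.3% of all genes did, and with T4, 2 and 5, where 2.52% and 21.9% did. KLB fell by 1.93 with T3 and by 1.43 with T4 at day 19. FLRT3, a membrane protein that binds FGF receptors, fell by 0.92 with T3 and by 0.68 with T4 at day 7. Of 17 genes of heparan sulfate synthesis and proteoglycans, 3 rose and 5 fell with T3 at day 7, 4 rose and 9 fell at day 19, and with T4 2 rose and 2 fell, then 3 rose and 8 fell. The 4 of 17 that rose with T3 at day 19 are near the 25.1% of all genes that did, and the 9 of 17 that fell stand beside 27.3%. The proteoglycans GPC3 and SDC2 fell at day 19 by 2.89 and 1.97 with T3 and by 2.30 and 1.38 with T4.

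Of the 16 adaptors and kinases below the receptor, 1 rose and 1 fell with T3 at day 7 and none was called with T4. At day 19, 3 rose and 6 fell with T3, and 1 rose and 5 fell with T4, shares close to the 52.3% and 42.8% of all genes called. SHC1, an adaptor, rose by 0.81 and 0.62 with T3 and T4. MAPK3, which encodes the kinase ERK1, fell by 1.17 and 0.86.

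Transcription factors and targets of ERK were mostly higher with T3 at day 7. Of 10 tested, 8 rose with T3 and none fell, with a median log2 fold change of 0.93 against 0.01 for all genes, where 9.43% of all genes were called higher. With T4, 2 rose and none fell (median 0.35), where 3.9% of all genes were called higher. Pluripotency markers were higher in the same libraries, 6 of 7 with each hormone (median 1.67 with T3 and 1.14 with T4), with sums in the order DMSO, T4, T3 given above, and their part in the differences of SPRY4 and of these genes was not tested. ETV4 went from 3.322 and 3.752 CPM in DMSO to 15.05 and 17.17 CPM with T3 and 7.665 and 8.632 CPM with T4, and rose by 2.18 and 1.20. FOSL1 rose by 2.16 with T3 from a low level of 0.4815 and 0.2886 CPM. ETV1, ETV5, MYC and CCND1 are named after their values were seen: with T3 at day 7 they rose by 2.93, 1.67, 0.98 and 0.38. At day 7 T4 was lower than T3 for 3 of the 10, among them ETV4 by 0.98 (adjusted p = 0.00239), where 0.365% of all genes were called. At day 19 the list split, with 4 higher and 2 lower under T3 and 5 higher and 2 lower under T4, where 52.3% and 42.8% of all genes were called. ETV4 was at 0.07 with T3 (adjusted p = 0.688) and fell by 0.47 with T4, and ETV5 fell by 0.49 and 0.79, while FOSL1 rose by 2.54 and 2.09 and MYC by 1.82 and 1.26.

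Feedback inhibitors did not move as a block. Of 12, SPRY4 included, 2 rose and 1 fell with T3 at day 7, and 5 rose and 2 fell at day 19. With T4, 1 rose and 1 fell at day 7, and 4 rose and 2 fell at day 19. The 7 of 12 called with T3 at day 19 are near the 52.3% of all genes. SPRY4 and SPRY2 were the 2 that rose with T3 at day 7, SPRY2 by 0.34. DUSP4, an ERK phosphatase, fell by 1.01 with T3 and 0.96 with T4 at day 7 and rose by 1.5 and 1.3 at day 19. ERRFI1, an inhibitor of the EGF receptor, rose at day 19 by 0.66 and 0.56. SPRY2, DUSP5 and DUSP6 are named after their values were seen. SPRY2 fell by 0.73 with T3 at day 19, DUSP5 rose by 0.86 with T3 and 0.26 with T4 at day 19, and DUSP6, an inhibitor often read as a gauge of FGF-ERK activity, was called in none of the 4 hormone comparisons (log2 fold changes 0.14, -0.32, -0.34 and -0.26 for T3 and T4 at day 7, then T3 and T4 at day 19).

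**Figure D4:**
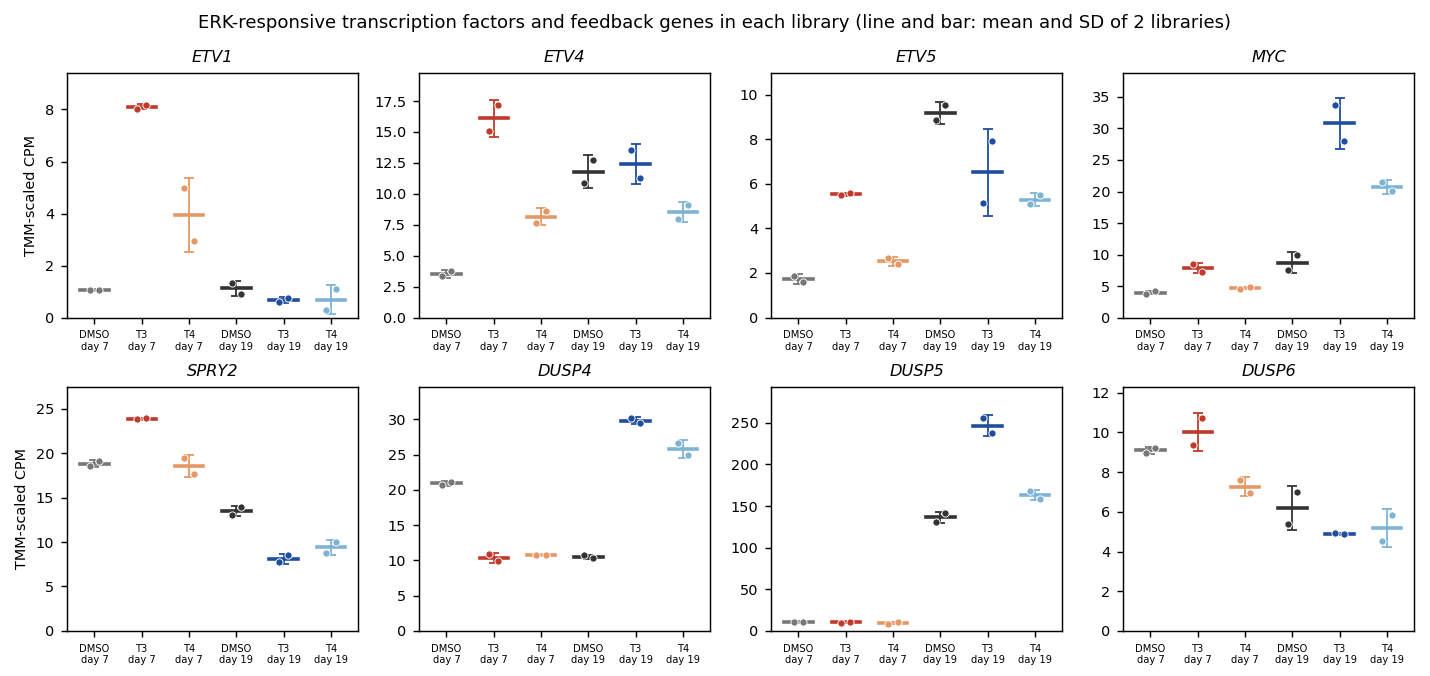
Points give TMM-scaled CPM of 4 ERK-responsive transcription factors (top) and 4 feedback genes (bottom) in each of the 12 libraries, with the mean and SD of each group, on axes from 0. ETV4 is at 15.05 and 17.17 CPM with T3 at day 7 against 3.322 and 3.752 CPM in DMSO, and the DUSP4 points lie below DMSO with hormone at day 7 and above it at day 19.

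Genes whose log2 CPM followed a member most closely over the 12 libraries were found for 1 receptor, 1 ligand and SPRY4, as a description in which all points share the 6 groups. FGFRL1 was followed by CLCN2 (r = 0.962), TRAM2-AS1 (0.954) and CNTN3 (0.945). FGF2 was followed by KCNK5 (0.966), HLTF (0.957) and BBS2 (0.944), and KCNK5 had means of 11.89, 18.12 and 16.45 CPM in DMSO, T3 and T4 at day 7 and 15.07, 11.05 and 11.87 CPM at day 19. SPRY4 was followed by PDE4A (0.981), C1orf226 (0.969) and MYH7B (0.968). PDE4A had means of 2.815, 6.61 and 4.455 CPM at day 7 and 9.219, 8.26 and 6.861 CPM at day 19.

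Promoter windows from 250 bases before to 50 after a start were examined for 6 of the 10 genes (RefSeq, GRCh38.p14, 11 windows). The half-site of nuclear receptors, AGGTCA on either strand, was found in the window of SPRY4 and in 1 of 5 windows of FGFR2, and 13.8% of 35116 promoters hold it. The direct repeat of AGGTCA with a gap of 4 bases, a form that thyroid hormone receptors bind, was in none of the 11 windows and in 0.0199% of all promoters. A match describes the letters only.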

How the data were processed

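Expected counts and FPKM were deposited by the authors as 1 transcript table per library. The submitters' processing notes name hg38, HISAT, Bowtie2 and RSEM, without versions. Expected counts, deposited without normalization, divide shared reads among transcripts. FPKM values, scaled by the authors to length and mapped reads, served for levels per length, transcript shares and an alternative test. Tables list transcripts from an FPKM of 0.01. Counts were summed per Entrez gene and rounded (pandas 2.3.3, Python 3.11.15), and 121 of 23922 genes without a symbol held at most 0.145% of a library.

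The test was edgeR 4.0.16 (R 4.3.3): filterByExpr (minimum count 10), TMM, 1 quasi-likelihood fit of 12 libraries with a mean per group and 6 residual degrees of freedom, two-sided, Benjamini-Hochberg adjusted over 18101 genes, called at 0.05. Every adjusted p in the report is from this fit unless another is named. Group sums at 0 were set to a floor of 3 counts, which covers counting error of that group only and not of the group compared with it. Alternatives were DESeq2 1.42.0, limma 3.58.1 on log2 FPKM with a pseudocount of 0.1 or 1, RLE factors, no filter, only the compared libraries, no most abundant genes, a replicate block and each library left out. The scripts were tested on simulated data.

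Members, lists and tests were chosen with earlier results of these data known. Named were all 10 members, per list the 2 other genes with the smallest p in a hormone comparison and a group mean of at least 1 CPM, and the 3 genes most correlated with the receptor, ligand and feedback gene called in most hormone comparisons. Marker lists not described in the report (primitive streak, definitive endoderm, endothelium, intestine, neural) are in the closing section. Exon sequences came from GENCODE, aligned with Biopython 1.88.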

Additional observations from a re-analysis of the deposited data

Results flagged for a closer look

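The effect of hormone on 5 genes differed between day 7 and day 19 by a test of the difference itself (edgeR quasi-likelihood test, adjusted over 18101 genes), on the log2 scale as the day 19 effect minus the day 7 effect. FGFR1 differed by 0.85 with T3 (SE 0.0766, adjusted p = 9.04e-07) and by 0.66 with T4 (SE 0.0769, adjusted p = 2.05e-05). FGFR3 differed by -0.72 with T3 (adjusted p = 1.48e-05) and by -0.45 with T4 (adjusted p = 0.00122). FGFR4, the receptor with the largest difference of effects, was at -1.66 with T3 (SE 0.0899, adjusted p = 7.32e-09) and at -1.12 with T4 (SE 0.0888, adjusted p = 7.05e-07). FGF2 was at -1.06 with T3 (adjusted p = 1.55e-05) and at -0.80 with T4 (adjusted p = 0.000335), with effects of opposite sign on the 2 days. SPRY4 was at -1.61 with T3 (SE 0.169, adjusted p = 3.64e-06) and at -1.08 with T4 (SE 0.18, adjusted p = 0.000431). The hormone comparisons of a day share their DMSO libraries, so the T3 and T4 values are not independent of each other.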

How the results depend on the processing

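Of the values of single genes under an alternative, 1076 kept their direction and side of the threshold, 53 lost their call, 8 gained one and 15 changed sign. The number of the 10 genes called with T4 at day 7 was 4, and 2 with DESeq2, which gave FGF4 no adjusted p, and 1 to 2 when a library was left out. With T4 at day 19 it was 7, where 7753 of 18101 genes were called. It was 4 with limma on FPKM, where 8322 and 8284 of 20870 genes were called with a pseudocount of 0.1 and 1. For T4 against T3 at day 7 it was 1 (66 of 18101 genes), and 2 with limma and a pseudocount of 1 (50 of 20870). For T4 against T3 at day 19 it was 4 (2848 of 18101 genes), and 2 in the fit of the compared libraries (1228 of 18101). Signs changed mainly where the value was near 0. FGFR3 with T3 at day 7 was at 0.00, and at -0.01 in the fit of the compared libraries, -0.03 under both FPKM pseudocounts, and -0.03 to 0.04 with a library left out. For T4 against T3 with a library left out, FGFRL1 at day 7 ran from -0.00 to 0.11, FGF17 at day 7 from -0.09 to 0.57, and FGF2 at day 19 from -0.08 to 0.13. That FGF2 value was 0.02, and -0.01 with RLE factors and with DESeq2. Between the days in DMSO, FPKM put FGFR4 at -0.19 under both pseudocounts, called lower, and FGF2 at -0.12 and -0.09, not called. The cause was not tested. Replicate numbers did not pair the samples (correlations of deviations -0.078 to 0.125). With a replicate block the number of the 10 genes called was the same in each of the 11 comparisons, for example 5 with T3 at day 7. The number of all genes called moved, for example from 2891 to 2843 with T3 at day 7. The shared fit pools a chi-square per gene of 1.572 to 2.05 at day 7 with 4.718 to 8.131 at day 19, and FGF4, FGF8 and FGF17 are limited by at most 52 counts per library. A group left with 1 library was assumed to vary like the other groups.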

Other observations

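Other marker lists were measured in the same libraries. Of all genes, 6.54% were called lower with T3 and 2.52% with T4 at day 7 and 27.3% and 21.9% at day 19, and 9.43% and 3.9% were called higher at day 7 and 25.1% and 21% at day 19. Of 5 definitive endoderm markers, 4 fell with each hormone at day 7 and 4 with T3 and 2 with T4 at day 19, and none rose. Of 4 endothelial markers, all fell with each hormone at day 7. Their summed level was then 72.47 to 72.58 CPM in DMSO, 40.77 to 43 CPM with T3 and 42.06 to 43.16 CPM with T4. At day 19, 1 rose and 3 fell with T3, and 1 rose and 2 fell with T4. The summed level was then 93.58 to 106.4 CPM in DMSO, 115 to 116.8 CPM with T3 and 101 to 122.9 CPM with T4. Of 4 intestinal markers, none was called at day 7 and all fell with each hormone at day 19, from 1933 to 2100 CPM in DMSO to 381.5 to 459.6 CPM with T3 and 749.6 to 973.1 CPM with T4. Of 3 tested neural markers, 2 rose with each hormone at day 7, and 1 rose and 1 fell at day 19, and SOX1 was at 0 in 4 of the 6 groups. Of the primitive streak markers, 2 were tested and none was called with hormone, at summed levels of 2.25 to 4.421 CPM over all libraries, and TBXT was at 0 in 4 of the 6 groups. No part of these lists in the FGF results was tested.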
